A study of Drosophila melanogaster with 9 samples.

Results

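The dorsal group is the set of Drosophila genes that sets up the dorsoventral axis of the embryo through the receptor Toll. The members examined were ndl, gd, snk, ea, spz, Tl, tub, pll, cact and dl, 10 of the 10844 genes measured. They were chosen by name, as the probe sets whose annotated gene is a listed member, and all 10 were found, on 11 probe sets. pll has 2 probe sets and every other member has 1. Their Entrez gene numbers are 38738 (ndl), 32159 (gd), 41607 (snk), 41858 (ea), 43256 (spz), 43222 (Tl), 40554 (tub), 43283 (pll), 34969 (cact) and 35047 (dl).

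In the egg, the proteases Nudel, Gastrulation defective, Snake and Easter act in turn in the fluid around the embryo, and Easter cuts the ligand Spätzle on the ventral side. Cut Spätzle binds Toll, which works through the adaptor Tube and the kinase Pelle to destroy the inhibitor Cactus, and the NF-κB factor Dorsal then enters ventral nuclei. Most of these RNAs are laid down in the egg by the mother, and the same Spätzle, Toll and Cactus module later controls immune genes in fat body and blood cells.

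Total RNA of whole dechorionated embryos at stages 13 and 14, when the epidermis closes over the dorsal side, was hybridised to 9 Affymetrix 1-colour arrays. All groups had a 2 h egg collection, an age of 9 h and a temperature of 25 °C. At least 85% of the embryos were at these stages, so some may have been younger or older. WT embryos (genotype w) gave 3 arrays. GOF embryos (w; UAS-hepACT/+; 69B/+) gave 3, and carry an activated form of Hemipterous, the kinase that activates the Jun N-terminal kinase (JNK), under 69B-GAL4, which drives expression in the ectoderm. LOF embryos (y w heprev75/y w hep1) gave 3, and carry mutant hep alleles on both chromosomes. The sources used here do not say how embryos of the mutant genotype were picked from their cross. All groups carry w. Each array of a group had an independent RNA preparation. Whether it also had its own egg collection is not stated, so p-values measure only the spread between these samples. The study asked which genes follow JNK activity during closure.

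Array medians lay between 688 and 709, and the deposited intensities ran from 29 to 1331513. Across genes, the correlation was 0.992 to 0.997 between arrays of a group, 0.989 to 0.994 between WT and LOF and 0.962 to 0.97 between WT and GOF. The files carry no detection call. Among stage markers in WT, the epidermal and tracheal chitin deacetylase gene verm read 127331 ± 4850, the amnioserosa gene Ance 39337 ± 5360 and the neuronal gene elav 9408 ± 2354 (SD, n = 3 each).

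In GOF, 6 of the 10 genes rose, 1 fell and 3 did not pass the test, where 16.6% of all genes rose, 20.1% fell and 36.7% changed in either direction. The rises were those of the proteases snk and ea, the ligand spz, the receptor Tl, the kinase pll and the inhibitor cact, and the fall was that of the adaptor tub. In LOF 0 of the 10 passed, where 4.72% of all genes did. A gene is said to rise or fall where limma's Benjamini-Hochberg adjusted p over all 10844 genes is under 0.05. A log2 change is the mean log2(value + 1) of one group minus that of the other, and SE is its standard error. The deposited values were probably returned from the log scale with base e in place of base 2, though the base is not stated. Every log2 change would then shrink by the factor 0.693, so folds of the risen genes are given under both. RNA of whole embryos was measured, so more or fewer cells that express a gene and more or less RNA per cell cannot be told apart.

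**Figure D1:**
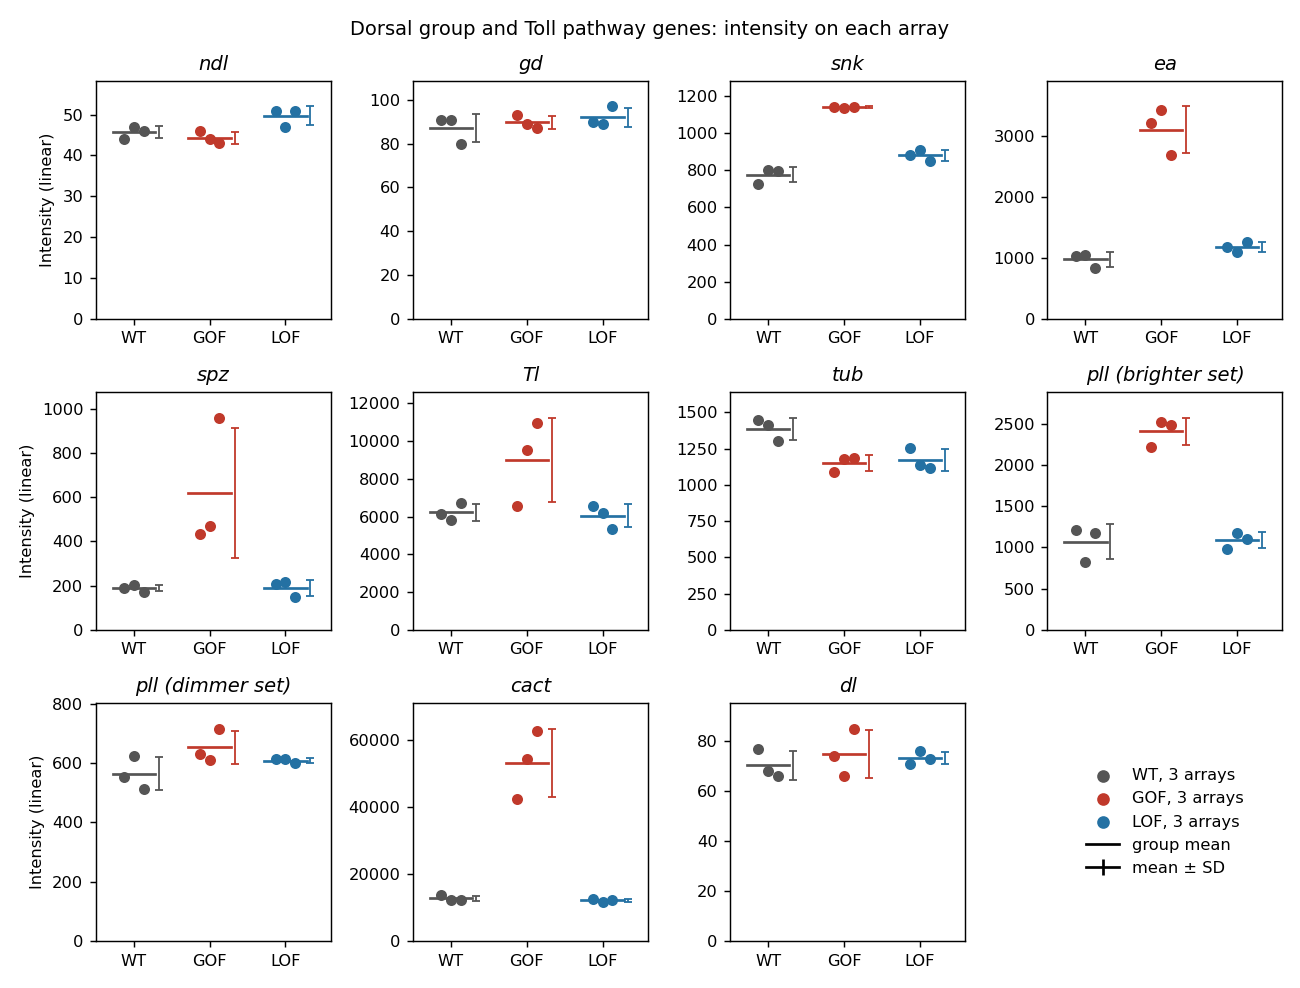
Deposited linear intensity (vertical axes, each starting at 0) of the 11 probe sets of the 10 genes on the WT, GOF and LOF arrays. Points are single arrays, horizontal lines group means and side bars mean ± SD (n = 3). GOF points lie above all WT points for snk, ea, spz, the brighter pll set and cact, and below them for tub.

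The proteases were measured first in pathway order. ndl encodes the large multidomain protease that follicle cells deposit around the egg and that starts the cascade. It read 44, 47 and 46 on the WT arrays, 46, 44 and 43 on the GOF arrays and 51, 47 and 51 on the LOF arrays. These values are near the lowest intensity in the table and the WT and GOF groups overlapped. The log2 change was -0.04 in GOF (SE 0.08, limma adjusted p = 0.765, 95% interval -0.22 to 0.14) and 0.12 in LOF (SE 0.08, adjusted p = 0.458, interval -0.06 to 0.30). The GOF arrays all lay below the LOF arrays, but that difference did not pass (log2 change -0.16, SE 0.08, adjusted p = 0.157).

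gd encodes the protease that cleaves Snake. It was similarly dim, with 91, 91 and 80 in WT, 93, 89 and 87 in GOF and 90, 89 and 97 in LOF. All groups overlapped. The log2 change was 0.04 in GOF (SE 0.09, limma adjusted p = 0.797, 95% interval -0.15 to 0.23) and 0.08 in LOF (SE 0.09, adjusted p = 0.684, interval -0.12 to 0.27). The probe sets of ndl and gd were both dim, and the part of background light in their values was not tested.

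snk encodes the protease that activates Easter. It read 729, 801 and 799 in WT, and 1144, 1138 and 1143 in GOF. The GOF arrays were nearly equal (1142 ± 3.21 against 776 ± 41.0 in WT, SD, n = 3), and all lay above WT. The rise was 0.56 (SE 0.08, limma adjusted p = 0.000213), which is 1.47-fold, or 1.31-fold with base e. The LOF arrays read 882, 911 and 851, above every WT array and below every GOF array. The LOF change of 0.18 did not pass after adjustment (SE 0.08, adjusted p = 0.238), whereas GOF stood above LOF by 0.37 (SE 0.08, adjusted p = 0.00326).

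ea encodes the protease that cuts Spätzle. It read 1029, 1046 and 837 in WT and 3202, 3422 and 2685 in GOF, so the dimmest GOF array was 2.57 times the brightest WT array. The rise was 1.68 (SE 0.12, limma adjusted p = 8.41e-07), 3.19-fold or 2.24-fold with base e. In LOF ea read 1174, 1087 and 1254, again above every WT array. That change of 0.28 did not pass (SE 0.12, adjusted p = 0.229), and the direct difference between GOF and LOF was 1.40 (SE 0.12, adjusted p = 3.61e-06).

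Next in the pathway are the ligand and its receptor. spz encodes the cystine-knot ligand of Toll, which is made as an inactive precursor. It read 191, 201 and 173 in WT, 433, 469 and 959 in GOF and 206, 214 and 147 in LOF. All GOF arrays lay above all others, and GOF replicate 3 stood apart from the other GOF arrays, with the highest GOF value 2.21 times the lowest. The rise was 1.62 (SE 0.25, limma adjusted p = 0.000345, 95% interval 1.07 to 2.17), 3.07-fold or 2.18-fold with base e, and 1.26 without GOF replicate 3. LOF overlapped WT, with a log2 change of -0.01 (SE 0.25, adjusted p = 0.986, interval -0.57 to 0.54), the widest interval among the 10 genes.

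Tl encodes the transmembrane receptor, which is also made by the embryo itself, in epidermis and muscle among other tissues. It read 6151, 5831 and 6722 in WT and 6581, 9517 and 10956 in GOF. GOF replicate 1 lay inside the WT range and the other GOF arrays above it. The rise was 0.50 (SE 0.16, limma adjusted p = 0.0292), 1.42-fold or 1.27-fold with base e. The call of Tl ended in 5 alternative settings. Leaving out WT replicate 1 gave a limma adjusted p of 0.0776, leaving out WT replicate 2 gave 0.0899, and the same step for GOF replicates 2 and 3 gave 0.0986 and 0.106. A fit without the LOF arrays gave 0.0557. In LOF Tl read 6552, 6201 and 5369, overlapping WT (log2 change -0.05, SE 0.16, adjusted p = 0.905, 95% interval -0.40 to 0.31).

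The cytoplasmic arm moved in both directions. tub encodes the adaptor that joins Myd88 at the receptor to Pelle. It read 1449, 1411 and 1301 in WT, 1088, 1177 and 1188 in GOF and 1257, 1136 and 1116 in LOF. Every GOF and every LOF array lay below every WT array. The fall in GOF was small (log2 change -0.27, SE 0.09, limma adjusted p = 0.0339), and the LOF change of -0.25 did not pass (SE 0.09, adjusted p = 0.154). GOF and LOF share the WT arrays. Set against each other they differed by -0.02 (SE 0.09, adjusted p = 0.878, 95% interval -0.22 to 0.17). The GOF call of tub ended in 7 alternative settings, with adjusted p up to 0.178 after cyclic loess.

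pll encodes the kinase that acts downstream of Tube. Its brighter probe set read 1207, 822 and 1177 in WT, 2215, 2523 and 2480 in GOF and 980, 1171 and 1101 in LOF. The GOF arrays lay apart from both other groups, whereas LOF overlapped WT. The rise was 1.19 (SE 0.14, limma adjusted p = 4.61e-05, 95% interval 0.88 to 1.5), 2.28-fold or 1.77-fold with base e. The dimmer set read 554, 622 and 512 in WT, 631, 610 and 715 in GOF and 612, 612 and 600 in LOF. All groups overlapped on the dimmer pll set, whose GOF change of 0.21 did not pass over probe sets (SE 0.10, adjusted p = 0.131), and whose upper 95% bound of 0.43 lay below the lower bound of the brighter set. The mean of both sets gave pll a GOF change of 0.70. The sources used here do not say which transcripts each set detects.

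cact encodes the inhibitor that holds Dorsal in the cytoplasm, and in immune cells it is itself a target of Toll signalling. It changed most among the 10 genes in GOF. WT arrays read 13714, 12285 and 12289, LOF arrays 12545, 11635 and 12305, and GOF arrays 42546, 54433 and 62884. The lowest GOF array was 3.10 times the highest WT array. The rise was 2.05 (SE 0.13, limma adjusted p = 2.93e-07), 4.13-fold or 2.67-fold with base e, and 142 of all genes had a larger log2 change, called or not. LOF overlapped WT (log2 change -0.07, SE 0.13, adjusted p = 0.811, 95% interval -0.35 to 0.21).

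dl encodes Dorsal itself. It read 77, 68 and 66 in WT, 74, 66 and 85 in GOF and 71, 76 and 73 in LOF, close to the dim end of the table, and all groups overlapped. The log2 change was 0.09 in GOF (SE 0.11, limma adjusted p = 0.604, 95% interval -0.15 to 0.32) and 0.06 in LOF (SE 0.11, adjusted p = 0.79, interval -0.17 to 0.30). The upper bound for dl in GOF lay below the lower bound for its inhibitor cact (1.76). Whether its probe set reports dl RNA well at this stage cannot be read from the files.

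**Figure D2:**
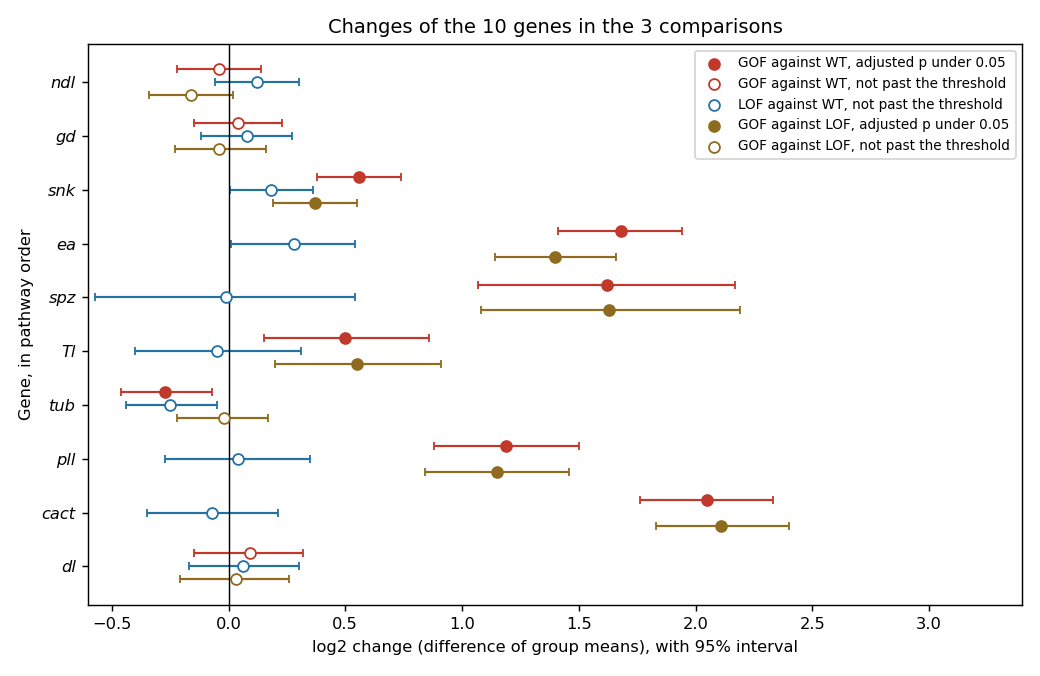
log2 change (horizontal axis) with its 95% interval for the 10 genes, in pathway order from top to bottom, for the 3 pairs of groups (red GOF to WT, blue LOF to WT, brown GOF to LOF). Filled points passed an adjusted p of 0.05. In LOF against WT 0 of 10 points are filled, and cact, ea, spz and pll have the 4 largest GOF changes, from 1.19 to 2.05.

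Counted by group, GOF arrays lay wholly above the WT arrays for 5 of the 10 genes (snk, ea, spz, pll and cact) and wholly below for 1 (tub), where 44.5% of all genes had groups that did not overlap. LOF arrays lay wholly above WT for 2 genes (snk and ea) and wholly below for 1 (tub), where 25.6% of all genes did not overlap. Before adjustment, 3 of the LOF changes in limma fell under 0.05, those of snk, ea and tub, where 19.8% of all genes did. The median log2 change of the 10 genes was 0.53 in GOF and 0.05 in LOF, beside -0.03 and 0.02 over all genes.

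The direct comparison of GOF with LOF called 6 of the 10 genes, all higher in GOF, where 17.7% of all genes were higher, 19.4% lower and 37.1% changed either way. They were snk, ea, spz, Tl, pll and cact. cact differed by 2.11 (SE 0.13, limma adjusted p = 2.26e-07), spz by 1.63 (SE 0.25, adjusted p = 0.000306), pll by 1.15 (SE 0.14, adjusted p = 5.53e-05) and Tl by 0.55 (SE 0.16, adjusted p = 0.0186). The groups did not overlap for 7 of the 10 genes (6 above and 1, ndl, below), against 49.5% of all genes. The Tl call ended without GOF replicate 2 (adjusted p = 0.0689), without GOF replicate 3 (0.0663) and without LOF replicate 3 (0.0757).

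The risen genes did not rank the GOF arrays alike. Measured from the WT mean on the log2 scale, spz stood at 1.2, 1.31 and 2.34 on GOF replicates 1 to 3, and cact at 1.74, 2.09 and 2.30. Tl stood at 0.08, 0.61 and 0.82. By contrast ea was lowest on GOF replicate 3, at 1.73, 1.82 and 1.47, and snk was level at 0.56, 0.55 and 0.56. Replicate 1 was the lowest GOF array for 4 of the 6 risen genes, and replicate 3 was the highest for 3.

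RNAs that the mother supplies, or that mark the syncytial embryo, were read as a further list, chosen with earlier results of these data known. Of 25 measured, none among the 10 genes, 14 rose in GOF and 2 fell, where 16.6% of all genes rose and 20.1% fell. The 4 with the smallest p in GOF were twe, the Cdc25 phosphatase of meiosis (197 ± 22.0 in WT, 5036 ± 1177 in GOF, log2 change 4.65), smg, a regulator of maternal RNA decay (4.36), swa (4.23) and plu (2.5). Chosen after their values were seen, bcd, the anterior determinant, stood further from WT than twe (151 ± 37.8 to 6934 ± 4355, log2 change 5.21), and tej stood at 4.52. The summed intensity of the list was 60225 to 62049 in WT, 218994 to 304216 in GOF and 61442 to 68522 in LOF, and CycB made up most of the GOF sum (199413 ± 32795, n = 3). The median gene of the list stood 0.40, 0.83 and 1.11 above the WT mean on GOF replicates 1, 2 and 3. In LOF 5 of the 25 rose and 0 fell, where 1.36% of all genes rose and 3.37% fell. Among these rises were smg (1.19), twe (0.79) and swa (0.79), and the calls of twe and swa ended in 3 and 4 alternatives. No value of the list was 0, since the lowest intensity in the table was 29. Not every maternal RNA moved past the threshold: chosen after their values were seen, nanos (log2 change 0.04, limma adjusted p = 0.811) and exu (-0.16, adjusted p = 0.325) did not pass in GOF. The part of these RNAs in the rise of the dorsal group genes was not tested.

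**Figure D3:**
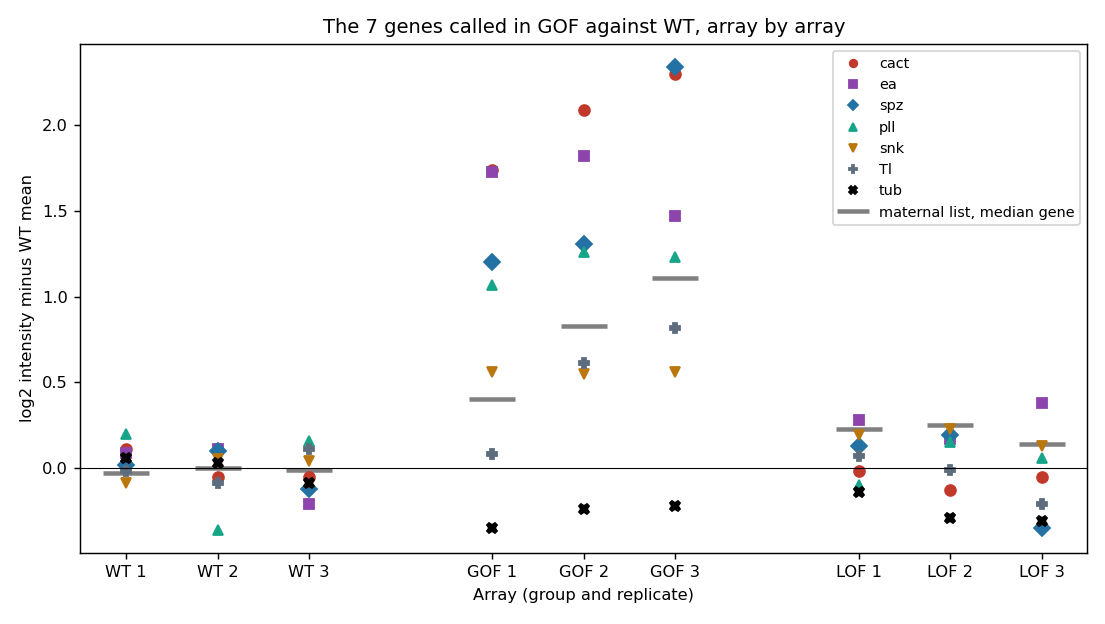
log2 intensity minus the WT mean (vertical axis) on each array (horizontal axis, group and replicate) for the 7 genes that changed in GOF, with a grey bar for the median gene of the maternal and syncytial list. On the GOF arrays cact stands between 1.74 and 2.30 and tub between -0.35 and -0.22, and the grey bar between 0.40 and 1.11.

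Markers of the later embryo went the other way in GOF. Over all genes 16.6% rose and 20.1% fell in GOF, and 1.36% rose and 3.37% fell in LOF. Of 14 epidermal genes measured 12 fell, such as en (log2 change -1.58) and verm (-1.22), of 11 amnioserosa genes 8 fell, such as grn (-1.26) and Ance (-1.09), and of 8 muscle and nervous system genes 6 fell, such as repo (-0.93) and kon (-0.85). None of the measured genes of these lists rose. In LOF 1 epidermal gene fell, en (-0.52, limma adjusted p = 0.0178), a call that ended in 3 alternatives, and 1 amnioserosa gene, Ance, fell. Of the 8 muscle and nervous system genes 1 rose in LOF, the synapse gene brp (0.44, adjusted p = 0.0371), a call that ended in 9 alternatives. elav read -1.0 in LOF (adjusted p = 0.0692) and passed in 4 alternatives (down to 0.00626). The summed epidermal intensity was 112371 to 140917 in GOF against 264130 to 284880 in WT and 266546 to 326779 in LOF. The summed amnioserosa intensity was 43875 to 45862 in GOF, 77657 to 87354 in WT and 62247 to 67975 in LOF. Ance, a large part of that sum, read 39337 ± 5360 in WT and 21580 ± 2570 in LOF. The other 10 of these genes did not pass in LOF. Hemocyte markers fell in GOF in 8 of 15 cases, such as gcm (-1.12) and srp (-0.93), with sums of 61463 to 70969 in GOF, 106875 to 125514 in WT and 157659 to 173865 in LOF. srp is also counted in the fat body and midgut list, and whether gcm and srp mark hemocytes alone at this stage was not tested. The probe sets of Hml, NimC1, eater and lz were dim (WT means from 51.7 to 67.0) and did not pass. In LOF 3 of the 15 hemocyte markers rose. They were Pxn, a blood cell matrix peroxidase gene (3443 ± 446 to 9609 ± 982, n = 3, log2 change 1.48, limma adjusted p = 0.000263), Ppn, a matrix protein gene (0.58, adjusted p = 0.00828), and PPO2, a crystal cell gene (0.46, adjusted p = 0.0413). The Ppn call ended with the mean of its probe sets (adjusted p = 0.721), and the PPO2 call ended in 9 alternatives (up to 0.631). Ppn, at 100769 ± 5126, made up most of the LOF sum. Fat body and midgut markers fell in 5 of 8 in GOF, such as Mtp (-1.14), and 0 of 8 passed in LOF, though apolpp passed with the mean of its probe sets (adjusted p = 0.00584). Blastoderm RNAs, which belong to the early and not the later embryo, went both ways in GOF. Of 19 measured 10 fell, such as opa (-1.62), and 1 rose, slam (2.01). In LOF 1 blastoderm RNA fell, opa (-0.46, limma adjusted p = 0.0441), a call that ended in 8 alternatives. Whether these shifts bear on the 10 genes was not tested.

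Other genes that act with the dorsal group were taken from a list of 18, of which 15 were measured. In GOF 9 of the 15 rose and 3 fell, where 16.6% of all genes rose and 20.1% fell. The median log2 change of the 15 was 0.47. Among the rises were krz, the arrestin that limits Toll signalling (2477 ± 145 in WT to 10200 ± 3029 in GOF, n = 3 each, log2 change 1.99, SE 0.19, limma adjusted p = 9.98e-06), Hrs, an endosomal sorting protein gene (1.63, adjusted p = 4.37e-07), and the kinase gene aPKC (1.52, adjusted p = 8.4e-06). The falls included pip, the sulfotransferase that marks the ventral egg coat (573 ± 73.3 to 220 ± 42.9, log2 change -1.38, SE 0.14, adjusted p = 1.26e-05), and wbl, the chaperone that Pipe needs (19916 ± 2643 to 9960 ± 1240, -1.0, adjusted p = 0.000125). At this stage pip is also a gene of the salivary gland.

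Further genes of that list were chosen after their values were seen. Spn27A, the serpin that restrains Easter, rose by 0.70 (limma adjusted p = 0.0011), and Myd88, the adaptor at the receptor, by 0.47 (adjusted p = 0.0126). cactin, which encodes a partner of Cactus, rose by 0.87 (adjusted p = 0.000371), Gprk2, a kinase of the Toll pathway, by 0.72 (adjusted p = 0.0026), and mop, an endosomal phosphatase homologue gene, by 1.07 (adjusted p = 0.000902). Sumo, which encodes the small modifier attached to Dorsal, rose by 0.44 (adjusted p = 0.0222), a call that ended in 3 alternatives, and slmb, which encodes a ubiquitin ligase subunit, fell (-0.91, adjusted p = 0.00764). In LOF 0 of the 15 passed, where 4.72% of all genes did. The smallest LOF p belonged to wbl (log2 change -0.50, adjusted p = 0.0612) and Deaf1, a transcription factor gene of the immune response (404 ± 156 to 811 ± 135, log2 change 1.06, SE 0.33, adjusted p = 0.0964). Both passed in 4 alternatives, with limma adjusted p down to 0.0289 for wbl and 0.00908 for Deaf1.

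Genes that build the axis in the ovary before Toll acts went both ways. Of 11 measured, 6 rose in GOF and 4 fell, where 16.6% of all genes rose, 20.1% fell and 36.7% changed either way. cni, which encodes the transport receptor of the Gurken ligand, rose by 0.83 (limma adjusted p = 0.00569), and Cbl, a ubiquitin ligase gene of EGF receptor turnover, by 1.18 (adjusted p = 7.93e-06). The homeobox gene mirr (-1.26) and the EGF receptor gene Egfr (-0.96) fell, and capu, an actin nucleator gene, fell by 0.37 on the log2 scale, a call that ended in 3 alternatives. Products of the follicle cells that form the eggshell, which share their source with ndl, passed in 1 of 16 cases: fs(1)N, a vitelline membrane gene, rose by 0.38 (adjusted p = 0.017), a call that ended in 2 alternatives. Their summed intensity was 21637 to 24322 in WT and 23315 to 24531 in GOF. In LOF 0 of the 11 ovarian axis genes and 0 of the 16 follicle products passed, where 4.72% of all genes did.

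Genes that Dorsal controls in the early embryo were read at a stage when most of them serve later tissues. Of 13 genes that Dorsal activates and that were measured, 7 fell in GOF and 1 rose. Over all genes 20.1% fell and 16.6% rose in GOF. The zinc finger gene sna, a mesoderm gene that is later active in neuroblasts, fell from 27050 ± 1827 to 12940 ± 1750 (n = 3 each, log2 change -1.07, SE 0.11, limma adjusted p = 1.62e-05), as did the cadherin gene CadN (-0.89) and SoxN (-0.89). The rise was that of fog, the secreted signal of mesoderm invagination (1.03, adjusted p = 0.000145). Of 15 dorsal ectoderm genes listed as repressed by Dorsal, 7 fell and 1 rose in GOF, with Ance (-1.09), egr (-0.66), Doc1 (-0.58) and Doc3 (-0.50) among the falls. The rise was that of dpp (0.31, limma adjusted p = 0.0191). Chosen after their values were seen, zen (-0.03) and tld (-0.21) did not pass. Whether Dorsal acts on each listed gene directly was not tested. In LOF 2 of these 15 fell, Ance (-0.86, adjusted p = 0.0029) and pnr (-0.53, adjusted p = 0.0224), and the call of pnr ended in 4 alternatives. In LOF 0 of the 13 activated genes passed. CadN, which fell in GOF, read 0.64 in LOF (limma adjusted p = 0.0618) and passed in 4 alternatives (down to 0.0105). Over all genes 1.36% rose and 3.37% fell in LOF.

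In the immune branch of the pathway 2 of 8 genes upstream of Toll and 1 of 9 effectors passed in GOF, where 36.7% of all genes did. The upstream genes that passed both fell: SPE, the protease that cuts Spätzle in immunity (3167 ± 466 to 1471 ± 83.1, n = 3 each, log2 change -1.10, SE 0.11, limma adjusted p = 1.2e-05), and grass (-0.29, adjusted p = 0.0318), whose call ended in 6 alternatives. The values of SPE and of ea, which cut the same ligand, thus went in opposite directions. The effector that passed, among 9 genes that Toll induces in immunity without cact, was a rise, that of the antifungal peptide gene Mtk (1008 ± 150 to 1368 ± 144, log2 change 0.45, adjusted p = 0.0184), a call that ended in 3 alternatives. Drs, the standard readout of Toll in the fat body and chosen after its values were seen, read 100 ± 4.0 on the WT arrays, against 98 ± 6.24 in GOF and 92 ± 5.57 in LOF. Dif, which encodes the NF-κB factor of adult immunity, read 61.7 ± 6.43 in WT and 76.3 ± 11.9 in GOF and did not pass (0.30, adjusted p = 0.0957), except without GOF replicate 3 (0.0133). The probe sets of Drs and Dif were dim, like that of gd (87.3 ± 6.35 in WT). The part of background light in their values was not tested, so level values there do not show that Toll output was unchanged. In LOF 0 of the 8 and 0 of the 9 passed, where 4.72% of all genes did. The effector gene Drsl5 did pass without WT replicate 2 (log2 change -1.04, limma adjusted p = 0.0236).

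**Figure D4:**
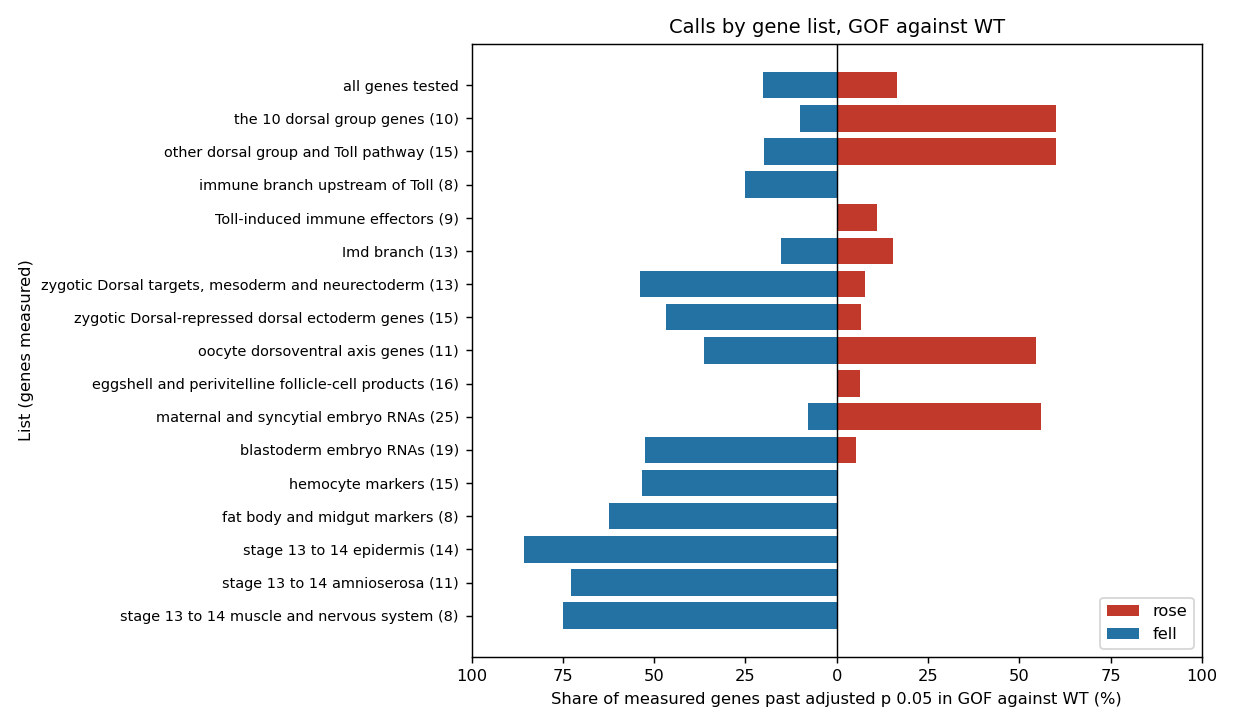
Share of the measured genes of each list that rose (to the right) or fell (to the left) in GOF against WT, in percent, beside the 10 dorsal group genes and all genes tested. The 10 genes are left out of the other lists, and 6 of the 10 and 9 of the 15 other dorsal group and Toll genes rose, against 16.6% of all genes.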

How the data were processed

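The deposited values are linear intensities of each probe set on every array. RMA produced them, per the submitters' processing notes. The sources used here give no version, no settings and no base for the return from the log scale. On at least 1 array, 239 of 14010 probe sets (1.71%) exceeded 65535, the top of a 16-bit scanner. The highest value, on LOF replicate 2, was 1331513. Base e is therefore more likely than base 2. With base e, the log2 changes, linear intensities and summed intensities printed here would overstate the differences between groups. Platform annotation gave 12443 probe sets 1 gene, 327 several and 1196 none, beside 44 controls. The brightest set stood for the 1209 genes with several, giving 10844 genes. No genome build is given for the probes, so no position is printed, and no sequence table was used here.

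log2(value + 1) was fitted with limma (version 3.58.1, R 4.3.3), 1 mean per group over all 9 arrays, two-sided, adjusted over all genes, without a filter on low values. The step was tested on simulated data. Alternatives were pseudocounts, base e, a filter on low values, other normalizations, single arrays left out, a replicate block, other probe set rules and an intensity trend. The 10 genes and all 15 other lists (193 of 239 listed genes, the 10 included, were measured) were chosen with earlier results of these data known. Named were the 10 genes and the 3 nearest profiles of each changed gene. From each list, genes were taken mainly from the 4 with the smallest GOF p and the 2 with the smallest LOF p. Not all of these are printed, so those given from a list are examples. Precision is limited by 3 arrays per group.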

Additional observations from a re-analysis of the deposited data

How the results depend on the processing

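The count of the 10 genes changed in GOF was 7, from 5 to 7 when single arrays were left out and from 5 to 7 in the other settings, the differences being the calls of Tl and tub and, under the filter that drops the dimmest 40% of genes, the absence of spz. In GOF against LOF it was 6, from 5 to 6, and in LOF against WT 0 in every setting run. snk, ea, cact and, where it was tested, spz kept their GOF calls in all settings. So did pll, judged by its brighter set or the mean of its sets, whereas its dimmer set alone did not pass (limma adjusted p = 0.131). With the replicate number as a block the counts were 6 in GOF, 0 in LOF and 6 in GOF against LOF, tub being lost (adjusted p = 0.0534). Same-numbered arrays of different groups correlated in their deviations from group means at -0.18 to 0.187, and differently numbered arrays at -0.277 to 0.233. With 3 arrays per group these values can neither show nor exclude a pairing by number. Over all genes 36.7% changed in GOF and 4.72% in LOF. Of 183 other listed genes, 102 changed in GOF (92 to 102 with single arrays left out, 84 to 105 otherwise, 101 with the replicate block). In LOF 14 changed (10 to 21 in the other settings, 19 with the block), and single arrays moved this from 4 to 23: it was 4 without WT replicate 1, 4 without LOF replicate 2, 6 without LOF replicate 1, 8 without LOF replicate 3 and 23 without GOF replicate 3.

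Values near 0 that did not pass changed sign in some settings and passed in none of them. They were gd in GOF (-0.02 without WT replicate 3) and in GOF against LOF (0.0006 after cyclic loess, 0.002 without LOF replicate 3), spz in LOF (0.04 without WT replicate 2, 0.16 without LOF replicate 3), Tl in LOF (0.01 without WT replicate 3, 0.03 without LOF replicate 3) and pll in LOF (-0.14 without WT replicate 2, -0.02 without LOF replicate 2). The others were dl in GOF and in GOF against LOF (-0.01 and -0.07 without GOF replicate 3) and tub in GOF against LOF (0.11 after cyclic loess, 0.02 without GOF replicate 1, 0.03 without LOF replicate 1). With single arrays left out, the ranges were -0.02 to 0.07 for gd in GOF, -0.06 to 0.002 for gd in GOF against LOF, -0.11 to 0.16 for spz, -0.11 to 0.03 for Tl, -0.14 to 0.14 for pll, -0.06 to 0.03 for tub, -0.01 to 0.17 for dl in GOF and -0.07 to 0.11 for dl in GOF against LOF. The cause was not tested. The dim probe sets of ndl, gd and dl bound what can be said of these genes.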

Other observations

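The neighbours of the 10 genes on the RefSeq Release 6 assembly were looked up by a rule added after the table was seen, the nearest measured gene on each side. Of 20 such genes 6 rose and 5 fell in GOF, where 16.6% of all genes rose and 20.1% fell. cact lies between cni (24498 ± 5222 in WT, 44184 ± 12159 in GOF, n = 3, log2 change 0.83, limma adjusted p = 0.00569) and CG4278 (0.68, adjusted p = 0.000838), and its locus overlaps that of fzy, the activator of the anaphase-promoting complex (5569 ± 127 to 15382 ± 751, 1.46, adjusted p = 6.95e-07). These 4 genes all rose in GOF. pll overlaps TfIIA-L, which also rose (0.74, adjusted p = 0.000382), and its flank woc fell (-0.56, adjusted p = 0.00138). The genes that overlap the risen snk, CG11668 (-0.19, adjusted p = 0.197) and CG11670 (-0.12, adjusted p = 0.483), did not pass. ndl, whose dim probe set did not pass, overlaps the mitochondrial calcium channel gene MCU, which rose from 277 ± 34.9 to 1391 ± 52.0 (2.33, adjusted p = 1.62e-08). The genes flanking ea did not rise: mRpL9 fell (-0.60, adjusted p = 0.0191), a call that ended in 4 alternatives, and CG6236 read -0.28 (adjusted p = 0.0519) and passed in 5 alternatives (down to 0.0186). Those flanking spz, Nep5 (-0.07) and CG14257 (0.01), did not pass. The sources used here do not say whether probes of overlapping genes share sequence.

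The genes with the profile most like each changed gene over the 9 arrays were taken by the smallest root mean square difference of log2 values, each measured from its WT mean. For cact they were CROT (difference 0.108, GOF log2 change 2.16), CG4287 (0.109, 2.18) and CG9393 (0.117, 2.14). For ea they were Mpv17 (0.134, 1.63), Dhod (0.135, 1.67) and rtet (0.146, 1.53), and for spz CG5568 (0.17, 1.54), pum (0.174, 1.58) and cta (0.175, 1.44). For pll they were Pka-R1 (0.0998, 1.13), Ranbp16 (0.123, 1.08) and CG14100 (0.124, 1.17). Nearest to snk lay Mnr (0.0589), Cyp4p1 (0.0666) and CG7110 (0.0731), to Tl snama (0.09), Vps35 (0.0945) and Rrp6 (0.1), and to tub Eato (0.05), Phf7 (0.0507) and CG7115 (0.067).

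In the other NF-κB pathway of the fly, the Imd branch, 2 of 13 measured genes rose in GOF and 2 fell. Over all genes 16.6% rose and 20.1% fell, so these counts lie near the general share. key, the regulatory subunit gene of the IκB kinase, rose from 656 ± 121 to 1546 ± 141 (n = 3, log2 change 1.25, SE 0.16, limma adjusted p = 7.79e-05) and its catalytic partner IKKbeta from 210 ± 6.03 to 286 ± 19.1 (0.45, adjusted p = 0.00221). imd (-0.29) and Tab2 (-0.29) fell, and their calls ended in 9 and 6 alternatives. Rel, the NF-κB factor of this branch, fell in LOF (380 ± 10.8 to 291 ± 22.6, -0.39, adjusted p = 0.0454), a call that ended in 6 alternatives, and did not pass in GOF (0.11, adjusted p = 0.429).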
